A study of Mus musculus with 12 samples.

Results

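The mRNA levels of 10 Notch pathway genes were compared in mouse cortex with and without GDE2. The 10 genes are the receptors *Notch1*, *Notch2*, *Notch3* and *Notch4*, the ligands *Dll1*, *Jag1* and *Jag2*, and the target genes *Hes1*, *Hes5* and *Hey1*. They were taken by gene symbol from the 36047 genes of the expression tables, and all 56 transcripts listed under these symbols were summed to genes. The 12 RNAseq libraries came from the cortex of 4-month-old and 19-month-old mice, 3 WT and 3 *Gde2*KO at each age. *Gde2*KO mice are global *Gde2*-/- animals, so the mutation is present in every cell type and throughout development. WT mice carry no other listed allele or treatment. Male and female mice were used in the study, and the sex behind each library is not given in the sources used here. The 19-month columns name no replicate, so those libraries are called A, B and C.

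Notch receptors are membrane proteins that are activated by Delta or Jagged ligands on a neighbouring cell. Binding of the ligand opens the receptor to cleavage by ADAM10 and then by γ-secretase, and the freed intracellular domain joins RBPJ in the nucleus and switches on genes of the *Hes* and *Hey* families. In the brain this pathway is best known for holding neural progenitors and astrocytes in their state and for building vessels, in which NOTCH3 is the receptor of smooth muscle cells and pericytes and NOTCH4 that of endothelial cells. GDE2 is a surface enzyme that cuts the GPI anchor of RECK, an inhibitor of ADAM10, and in developing spinal cord it has been linked in this way to shedding of the ligand DLL1. RNA levels, as measured here, do not show cleavage of a receptor or ligand.

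*Hes5* encodes a transcriptional repressor and is a classical readout of Notch activity. It had the largest genotype difference among the 10 genes at 4 months, and its promoter is shown because it holds letters bound by RBPJ. The 250 bases before its start site lie at chr4:154960673-154960922 on the plus strand (RefSeq, GRCm38.p6), and capitals mark each match to TGGGAA, the core that RBPJ recognizes, searched on both strands.
Hes5 promoter: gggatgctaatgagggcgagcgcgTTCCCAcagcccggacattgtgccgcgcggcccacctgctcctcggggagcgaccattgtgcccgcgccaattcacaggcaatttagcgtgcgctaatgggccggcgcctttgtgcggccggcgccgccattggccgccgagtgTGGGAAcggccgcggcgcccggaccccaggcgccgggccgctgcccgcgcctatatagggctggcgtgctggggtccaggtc
The matches begin 226 bases before the start site, on the minus strand, and 82 bases before it, on the plus strand. Of 32851 promoter windows of this length, 21.6% held at least 1 match and 2.77% held at least 2. Promoter windows were found for 8 of the 10 genes, and those of the other 7, all receptors and ligands, held 0 matches. No window was found for *Hes1* and *Hey1*, so *Hes5* could not be compared with the other targets. A match describes the letters only, and binding was not measured.

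Libraries held 46434270 to 59728494 estimated reads at 4 months and 3707928 to 44604721 at 19 months. Library A of each 19-month genotype was shallow, with 6734475 reads in WT and 3707928 in *Gde2*KO, so that 1 read there equals 4.66 and 8.29 normalized counts. TPM totals were 1472299 in 4-month *Gde2*KO replicate 3 and 887748 to 1103966 in the others. TPM and summed TPM are therefore not on a common scale across libraries. The labelled tissue was checked with markers of neighbouring regions. WT replicates 1 and 2 at 4 months had 307 and 288 summed TPM of 10 hippocampal markers, against 67.6 to 110 in the other 10 libraries. Summed striatal markers were 170 to 281 TPM in WT replicates 1 and 2, 1149 to 2936 in the other 4 libraries at 4 months, and 270 to 769 at 19 months. The 19-month genotypes differed as well. Hippocampal sums were 67.6 to 74.3 in WT and 92.4 to 110 in *Gde2*KO, with 1 of 10 markers called higher. Striatal sums were 270 to 367 in WT and 342 to 769 in *Gde2*KO, with 0 of 10 called. Their part in the 19-month comparison was not tested. *Gdpd5*, which encodes GDE2, had 684, 702 and 1199 normalized counts in WT and 417, 585 and 403 in *Gde2*KO at 4 months. At 19 months it had 1065, 1129 and 952 in WT and 441, 456 and 560 in *Gde2*KO. Signal of *Gdpd5* thus remained in every knockout library. By normalized counts, all knockout libraries were lower than all WT libraries at both ages (log2 fold change -0.85, SE 0.25, limma adjusted p = 0.463 at 4 months; -1.11, SE 0.12, limma adjusted p = 0.0111 at 19 months). By TPM the 4-month genotypes overlapped, with 14.9 in *Gde2*KO replicate 2 and 12.3 and 12.7 in WT replicates 1 and 2. The 19-month call was lost with gene-level TPM (-0.85, limma adjusted p = 0.634), with no intensity trend (-1.11, adjusted p = 0.288), with all 12 libraries in the fit (-1.11, adjusted p = 0.194) and without WT library A (-1.10, adjusted p = 0.118).

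To compare levels between genes, TPM values, which correct for transcript length, were used. In 4-month WT cortex *Jag2*, a ligand, had the highest level at 36.3 ± 1.82 TPM (SD, n = 3), followed by *Hey1* at 33.0 ± 2.99, *Hes1* at 23.3 ± 2.21 and *Hes5* at 16 ± 7.79. *Notch1* followed at 9.51 ± 1.39 TPM (SD, n = 3), *Dll1* at 8.23 ± 1.12 and *Notch4* at 6.68 ± 0.431. *Notch2* had 5.16 ± 0.920 TPM, *Notch3* 4.37 ± 1.97 and *Jag1* 3.41 ± 0.922. Neighbours in this order overlapped between libraries except *Hey1* and *Hes1*, *Hes5* and *Notch1*, and *Notch4* and *Notch2*. By their means the targets and *Jag2* stood above the receptors in all 4 groups, with *Hey1* at the top in 4-month *Gde2*KO (42.2 ± 3.27 TPM) and *Jag2* at the top in 19-month WT (52.4 ± 4.68 TPM). By these means, which sum all transcripts of a gene, *Jag1* was lowest in all 4 groups. The order depends on the non-coding transcripts. In 4-month WT, coding transcripts held on average 25.2% of TPM for *Notch4*, 51.0% for *Jag2*, 89.9% for *Hey1* and 89.5% for *Jag1*. In coding transcripts alone, *Hey1* was above *Jag2* and *Notch4* below *Jag1* in every 4-month WT library. In WT replicate 1, the coding transcripts of *Notch4* and *Jag1* had 1.72 and 2.92 TPM.

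**Figure D1:**
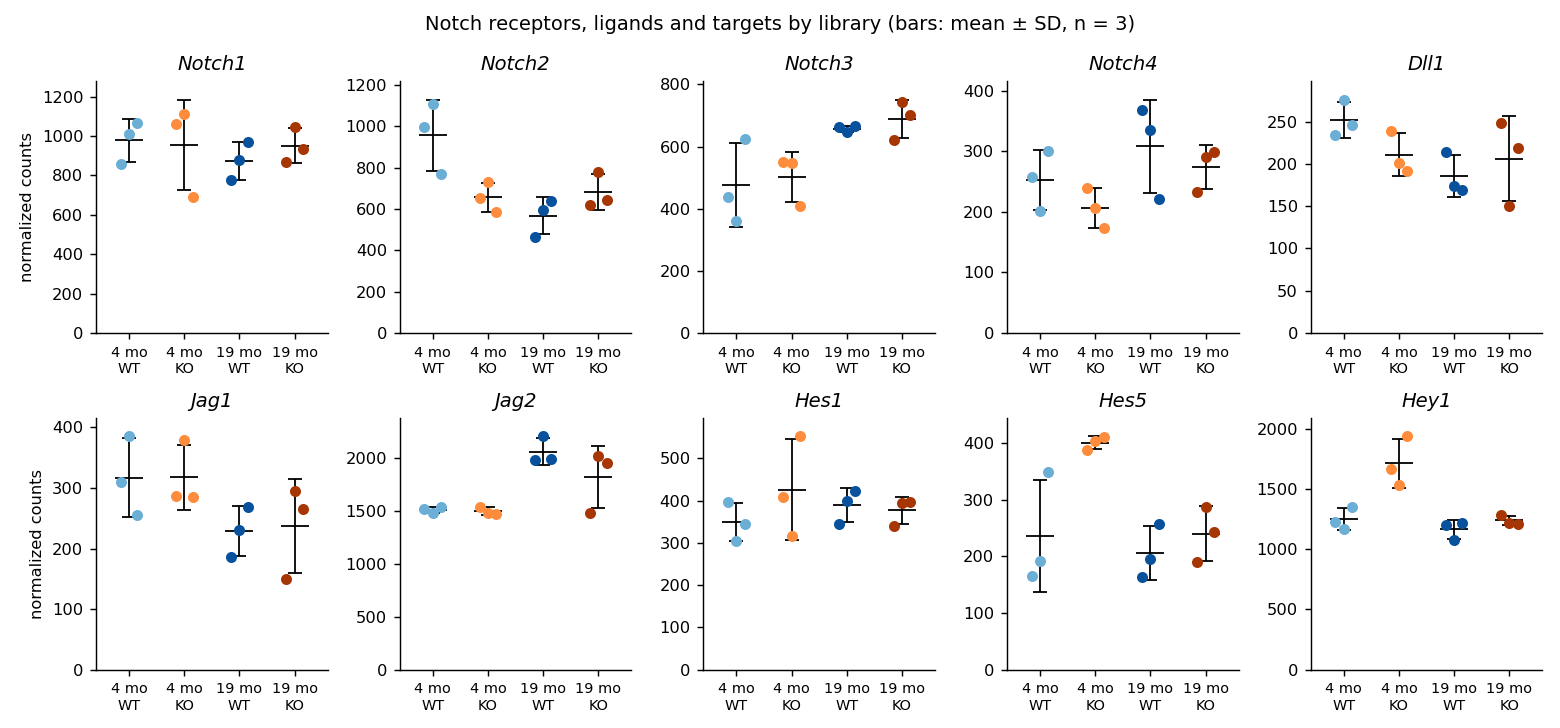
Normalized counts (vertical axes, from 0) of the 10 genes in each of the 12 libraries, grouped by age and genotype, with the mean and SD of 3 libraries as bars. *Notch2* is high in 4-month WT, at 767 to 1106 counts, and *Hes5* is high in 4-month *Gde2*KO, at 387.8 to 410.

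Whether loss of GDE2 changed the pathway was asked first at 4 months. Of the 10 genes, 0 were called, with 3 at an unadjusted p under 0.05 (limma). A gene was called at an adjusted p under 0.1 and an absolute log2 fold change above 0.721, which held for 24 of 19035 genes, or 0.126% of those tested. *Notch2* was lower and *Hes5* and *Hey1* were higher in every *Gde2*KO library than in every WT library, that is 3 of 10 genes whose groups did not overlap, where 15.4% of all genes tested had such groups. The median log2 fold change was 0.00 over the 10 genes and 0.11 over all genes.

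Among the receptors, *Notch2* (ENSMUSG00000027878.11, chromosome 3, 98013527 to 98150361 of GRCm38) had 995, 1106 and 767 normalized counts in WT and 654, 729 and 587 in *Gde2*KO at 4 months. The groups did not overlap, and the WT library nearest to the knockout was replicate 3, which lacked the hippocampal marker signal. Replicates 1 and 2 also had less striatal marker signal, at 281 and 170 summed TPM against 2115 in replicate 3. The part of either signal in the *Notch2* level was not tested, and the 2 signals cannot be told apart here. The log2 fold change was -0.53 (SE 0.17, 95% interval -0.93 to -0.13, limma adjusted p = 0.463; two-sided exact permutation p = 0.10, the smallest that 3 against 3 allow). Without the 2 WT libraries rich in hippocampal markers, an alternative chosen after seeing the data, it was -0.23. That alternative leaves WT replicate 3 as the only 4-month WT library here and wherever it is named, and assumes that it varies as the other groups do, so its values rest on 1 library and a lost call there does not show that a difference is absent.

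*Notch1* (ENSMUSG00000026923.15, chromosome 2, 26457903 to 26516663), the receptor best known from neural progenitors, had 857, 1009 and 1068 normalized counts in WT and 1061, 1112 and 692 in *Gde2*KO. The lowest and the highest value were both in *Gde2*KO, so the groups overlapped (log2 fold change -0.06, 95% interval -0.53 to 0.41). *Notch3* (ENSMUSG00000038146.8, chromosome 17, 32120820 to 32166852) had 438, 362 and 625 in WT and 551, 549 and 410 in *Gde2*KO. *Notch4* (ENSMUSG00000015468.14, chromosome 17, 34564268 to 34588503) had 258, 201 and 300 in WT and 239, 206 and 174 in *Gde2*KO. For both, the spread within a genotype was as wide as the difference between genotypes (log2 fold changes 0.11 and -0.29).

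The ligands differed little. *Jag2* (ENSMUSG00000002799.6, chromosome 12, 112907819 to 112929776) was the steadiest of the 10 genes, at 1516, 1481 and 1540 normalized counts in WT and 1541, 1483 and 1472 in *Gde2*KO. Its log2 fold change of -0.01 had a 95% interval of -0.27 to 0.24. *Dll1* (ENSMUSG00000014773.13, chromosome 17, 15367354 to 15376872), the ligand tied to GDE2 in development, had 234, 276 and 246 in WT and 239, 201 and 192 in *Gde2*KO. The WT and *Gde2*KO values of *Dll1* overlapped in 1 library of each group (log2 fold change -0.26, 95% interval -0.64 to 0.12, limma adjusted p = 0.514). *Jag1* (ENSMUSG00000027276.7, chromosome 2, 137081456 to 137116644) had 311, 385 and 255 in WT and 288, 380 and 285 in *Gde2*KO, a log2 fold change of 0.01 with a 95% interval of -0.46 to 0.48.

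Among the targets, *Hes5* (ENSMUSG00000048001.7, chromosome 4, 154960923 to 154962371) had 166, 192 and 349 normalized counts in WT and 387.8, 402.8 and 410 in *Gde2*KO. The knockout libraries lay close together, and the WT libraries split, with replicates 1 and 2 far below replicate 3. The log2 fold change was 0.84 (SE 0.27, 95% interval 0.22 to 1.47, limma adjusted p = 0.463). Among the alternatives run, the difference passed the call only without WT replicate 3, at 1.16 (limma adjusted p = 0.00669), and against WT replicate 3 alone it was 0.20.

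*Hey1* (ENSMUSG00000040289.8, chromosome 3, 8663359 to 8667256), a repressor of the same family as *Hes5*, had 1228, 1171 and 1354 normalized counts in WT and 1669, 1538 and 1937 in *Gde2*KO. Every knockout library was above every WT library, replicate 3 included. The log2 fold change was 0.45 (SE 0.14, 95% interval 0.13 to 0.77, limma adjusted p = 0.463), and against WT replicate 3 alone it was 0.33. *Hes1* (ENSMUSG00000022528.8, chromosome 16, 30064384 to 30067796), which encodes a repressor that represses its own gene, had 396.5, 305.4 and 345.8 in WT and 410, 316 and 552 in *Gde2*KO. The groups overlapped, and 1 knockout library, replicate 3, was well above the rest (log2 fold change 0.26, 95% interval -0.26 to 0.77). Summed TPM of 24 immediate early genes, which neurons switch on within minutes of activity, were 576 to 1019 in WT and 1494 to 1776 in *Gde2*KO at this age, and 5 of the 24 were called higher. *Gde2*KO replicate 3 also had the highest share of mitochondrial transcripts, at 8.84% against 4.09% to 5.97% in the other 11 libraries. The part of these signals in the *Hes* and *Hey1* levels was not tested.

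**Figure D2:**
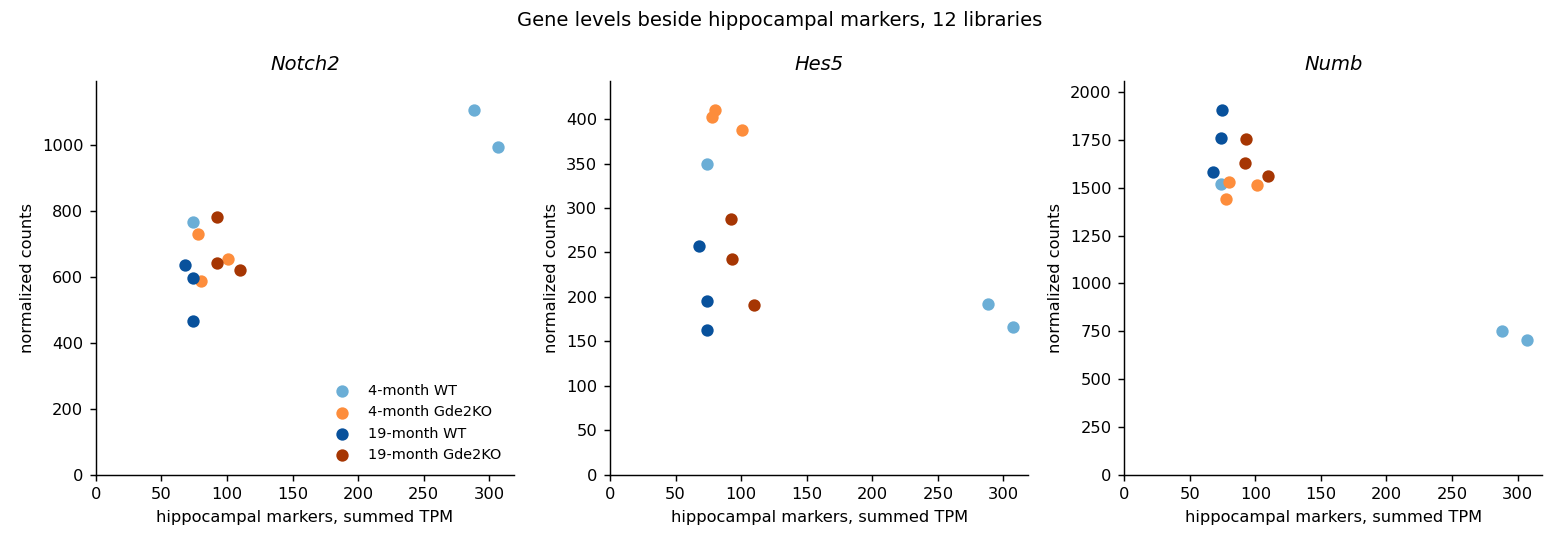
Normalized counts of *Notch2*, *Hes5* and *Numb* (vertical axes) against summed TPM of 10 hippocampal markers (horizontal axes) in 12 libraries, colored by group. The 4-month WT libraries at 307 and 288 TPM stand apart on the right, high for *Notch2*, low for *Hes5* and lowest of all libraries for *Numb*.

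At 19 months, 0 of the 10 genes were called and 0 had an unadjusted p under 0.05 (limma), where 18 of 18583 genes, or 0.0969%, were called. WT and *Gde2*KO libraries overlapped for all 10 genes, while 14.2% of all genes tested had groups that did not. The median log2 fold change was 0.08 over the 10 genes and -0.02 over all genes.

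*Notch2* had 466, 597 and 638 normalized counts in WT and 622, 782 and 642 in *Gde2*KO at 19 months. The highest WT library lay between knockout libraries, and the order of the means was the reverse of that at 4 months (log2 fold change 0.27, 95% interval -0.05 to 0.59, limma adjusted p = 0.729). *Hes5* had 163, 196 and 257 in WT and 191, 287 and 243 in *Gde2*KO (log2 fold change 0.23, 95% interval -0.25 to 0.71). *Hey1* had 1197, 1076 and 1221 in WT and 1285, 1222 and 1210 in *Gde2*KO (log2 fold change 0.09, 95% interval -0.08 to 0.26). For both targets the genotypes overlapped, and the interval of *Hes5* is wide.

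Among the other receptors, *Notch1* had 778, 877 and 967 normalized counts in WT and 871, 1048 and 936 in *Gde2*KO at 19 months. *Notch3* had 662, 647 and 665 in WT and 622, 744 and 700 in *Gde2*KO, the smallest SD of the 10 genes in 19-month WT (658 ± 9.51, n = 3). *Notch4* had 368, 334 and 221 in WT and 232, 291 and 298 in *Gde2*KO, and its WT libraries spanned the knockout range. Of the ligands, *Dll1* had 214, 174 and 169 in WT and 249, 150 and 219 in *Gde2*KO, and *Jag1* had 186, 231 and 269 in WT and 149, 296 and 266 in *Gde2*KO. For both ligands the highest and the lowest value were in *Gde2*KO. The target *Hes1* had 345, 400 and 423 in WT and 340, 395 and 397 in *Gde2*KO, so the outlying high value seen in 1 knockout library at 4 months had no counterpart.

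The other 19-month log2 fold changes were between -0.19 for *Jag2* and 0.13 for *Dll1*. *Jag2* had 1980, 2204 and 1988 normalized counts in WT and 1485, 2021 and 1955 in *Gde2*KO, with the lowest value in the shallow library A. The narrowest interval among the receptors was that of *Notch3*, at -0.14 to 0.27 around 0.06. *Jag1* had the widest, at -0.59 to 0.61 around 0.01, and rested on 18 estimated reads in *Gde2*KO library A.

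**Figure D3:**
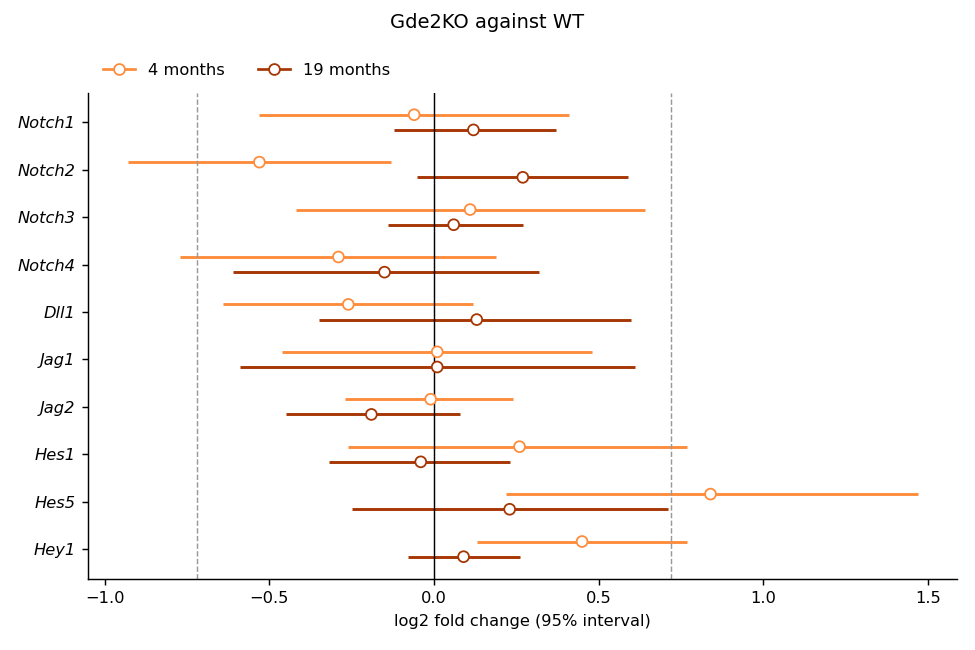
Log2 fold change of *Gde2*KO against WT (horizontal axis) for the 10 genes at 4 and 19 months, with 95% intervals as lines and the call threshold of 0.721 in either direction as dashed lines. Open circles mark values that were not called, which all 20 are. At 4 months the intervals of *Notch2*, *Hes5* and *Hey1* leave out 0, and at 19 months all 10 include it.

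Whether the genotype difference changed with age was tested as an interaction over all 12 libraries. Of the 10 genes, 0 were called, with 2 at an unadjusted p under 0.05 (limma), and 9 of 18731 genes, or 0.0480%, were called at the adjusted p alone. The pair was *Notch2*, whose log2 fold change was higher at 19 months than at 4 months by 0.80 (SE 0.23, 95% interval 0.29 to 1.31, limma adjusted p = 0.368), and *Hey1*, which differed by -0.36 (SE 0.15, 95% interval -0.68 to -0.04, limma adjusted p = 0.372). For *Hes5* the value was -0.61, with a 95% interval of -1.42 to 0.20. Without 4-month WT replicate 3, *Notch2* at 0.95 and *Hes5* at -0.93 were called, and with it as the only 4-month WT library *Notch2* was at 0.50 and *Hes5* at 0.04. The genotype comparison at 4 months, the interaction and the age comparison in WT all use the same 3 WT libraries of 4 months. The interaction shares libraries with every other comparison and is not separate evidence for them.

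Between 4 and 19 months, 1 of the 10 genes was called in WT and 1 in *Gde2*KO, while 13.7% of 18731 genes were called in WT and 11.9% in *Gde2*KO, so a share as large as among the 10 genes was found among genes at large. The ages differ in animals and in depth, and no source used here says that they were prepared together. Age cannot be told apart from such differences. In WT, *Notch2* was lower at 19 months. Its 19-month values of 466 to 638 normalized counts lay below its 4-month values of 767 to 1106 (log2 fold change -0.75, SE 0.17, limma adjusted p = 0.0112). The value fell under the fold threshold without 4-month WT replicate 1 (-0.71) or 2 (-0.64), without 19-month WT library A (-0.62) and without both shallow libraries (-0.62), with limma adjusted p from 0.0451 to 0.0596, and with WT replicate 3 as the only 4-month WT library the value was -0.45 (limma adjusted p = 0.376). In *Gde2*KO, *Notch2* had nearly the same mean at both ages, 657 ± 71.0 and 682 ± 87.0 normalized counts (SD, n = 3).

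In *Gde2*KO, *Hes5* had 387.8, 402.8 and 410 normalized counts at 4 months and 191, 287 and 243 at 19 months. In these counts every 19-month library was below every 4-month library (log2 fold change -0.76, SE 0.26, limma adjusted p = 0.0588). In TPM the values lay closer, at 24.7, 25.4 and 22.6 at 4 months and 21.8, 22.2 and 16.4 at 19 months. TPM totals were 1020815 to 1472299 in these 4-month libraries and 894069 to 906677 in these 19-month libraries. These TPM and the summed TPM below were not rescaled for that. By gene-level TPM the change was -0.28 (limma adjusted p = 0.494), and with median-ratio scaling it was -0.59 (limma adjusted p = 0.132). The value stayed near -0.76 without 4-month *Gde2*KO replicate 1 (-0.78) or 3 (-0.74) and without 19-month library C (-0.77) and was -0.60 without library A, with limma adjusted p from 0.110 to 0.163, so the call was lost in all 4. *Hey1* had a smaller difference with less spread, -0.46 (SE 0.11, limma adjusted p = 0.0144), which missed the fold threshold. Its 4-month *Gde2*KO libraries, at 1538 to 1937, were above all 19-month *Gde2*KO libraries, at 1210 to 1285. In WT the differences were -0.15 for *Hes5* and -0.10 for *Hey1*, with 95% intervals of -0.72 to 0.43 and -0.33 to 0.13. With WT replicate 3 as the only 4-month WT library the *Hes5* value in WT was -0.79 (limma adjusted p = 0.218). Summed TPM of 10 astrocyte markers were 1576 to 2022 at 4 months and 1588 to 1874 at 19 months, with 1 of 10 called lower in each genotype. Those of 10 progenitor markers were 104 to 158 in WT and 122 to 152 in *Gde2*KO at 4 months and 86.6 to 103 and 91.5 to 107 at 19 months, with 2 of 10 called lower in WT and 0 in *Gde2*KO. None of these 20 markers was at 0 in a library. Other lists were lower at 19 months in *Gde2*KO, with 3 of 10 striatal markers, 9 of 24 immediate early genes, 2 of 6 markers of oligodendrocyte precursors and 4 of 9 of oligodendrocytes called lower and 0 of each called higher. In WT, 2 of 6 and 4 of 9 of the latter lists were also called lower. There 0 striatal markers were called, and 7 early genes were called higher and 1 lower. Over all 18731 genes, 1746 were called lower and 478 higher in *Gde2*KO, and 1386 and 1179 in WT. Summed TPM of the striatal markers were 1149 to 2936 at 4 months and 342 to 769 at 19 months in *Gde2*KO, and those of the early genes 1494 to 1776 and 1055 to 1380. The part of these signals in the *Hes5* and *Hey1* levels was not tested, and fewer cells of a type cannot be told apart from less RNA per cell in whole cortex.

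*Notch3* was higher at 19 months in both genotypes, at 647 to 665 normalized counts in WT and 622 to 744 in *Gde2*KO, against 362 to 625 and 410 to 551 at 4 months. The ages did not overlap in either genotype. Its log2 fold changes of 0.51 in WT (SE 0.18, limma adjusted p = 0.0727) and 0.46 in *Gde2*KO (SE 0.18, limma adjusted p = 0.0877) were below the fold threshold. *Jag2* was at 1980 to 2204 in 19-month WT and 1481 to 1540 in 4-month WT, a log2 fold change of 0.44 (SE 0.11, limma adjusted p = 0.0203) that also missed it, and in *Gde2*KO it was 0.27 (limma adjusted p = 0.105). Groups did not overlap between ages for 4 of the 10 genes in WT and 3 in *Gde2*KO, where 46.0% and 41.2% of all genes had such groups.

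The other genes were not called with age, apart from *Dll1* in WT by gene-level TPM (-0.74, limma adjusted p = 0.0816). *Jag1* was lower by the same amount in both genotypes, with a log2 fold change of -0.47 in WT (SE 0.26, 95% interval -1.02 to 0.09, limma adjusted p = 0.220) and -0.47 in *Gde2*KO (SE 0.26, 95% interval -1.03 to 0.09, limma adjusted p = 0.200). *Dll1* had -0.45 in WT, where every 19-month library, at 169 to 214 normalized counts, was below every 4-month library, at 234 to 276 (limma adjusted p = 0.125). In *Gde2*KO it had -0.06, with a 95% interval of -0.48 to 0.36. *Notch4* had 0.27 in WT and 0.41 in *Gde2*KO, and *Notch1* and *Hes1* lay between -0.16 and 0.16 in both.

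Markers of mural cells, the smooth muscle cells and pericytes that carry NOTCH3, are given beside *Notch3*. Summed TPM of the 12 markers were 111 to 139 in WT and 134 to 176 in *Gde2*KO at 4 months, and 156 to 173 and 163 to 175 at 19 months. The ages did not overlap in WT. In *Gde2*KO they overlapped only through 4-month replicate 3, at 176, which had the highest TPM total of all libraries. This overlap therefore cannot be read as a difference between genotypes. Of the 12 markers, 5 were called higher in each genotype and 0 lower. With WT replicate 3, the highest of its group for *Notch3*, as the only 4-month WT library, the *Notch3* value in WT was 0.07. The part of mural cells in it was not tested.

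**Figure D4:**
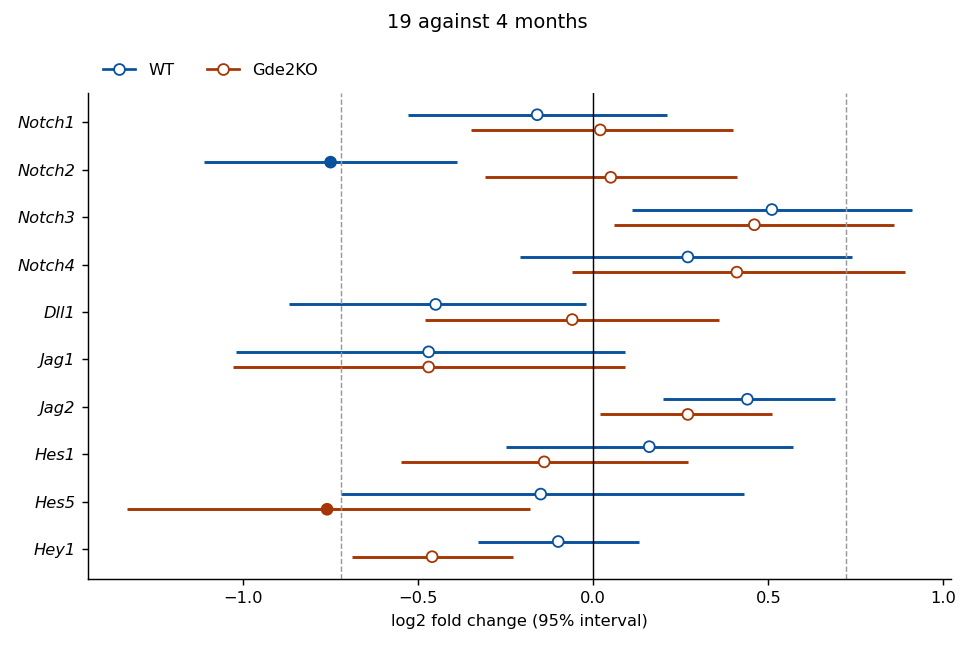
Log2 fold change of 19 against 4 months (horizontal axis) for the 10 genes in WT and in *Gde2*KO, with 95% intervals as lines and the call threshold of 0.721 in either direction as dashed lines. Filled circles mark called values, which are *Notch2* in WT, at -0.75, and *Hes5* in *Gde2*KO, at -0.76.

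The other genes of the pathway, 60 in a hand-written list of which 59 were tested, gave 0 calls in either genotype comparison and 0 in the interaction. At an unadjusted p under 0.05 (limma) there were 7 genes at 4 months, 4 at 19 months and 11 in the interaction, beside 2025 of 19035, 1285 of 18583 and 2408 of 18731 genes in all. The median log2 fold change of the list was 0.05 at 4 months, 0.01 at 19 months and -0.05 in the interaction, beside 0.11, -0.02 and -0.15 over all genes. The protease gene *Adam10*, its inhibitor *Reck*, the nuclear partner *Rbpj*, the ligand-like *Dner* and the target *Heyl* had log2 fold changes between genotypes of -0.01 to 0.36 at 4 months and of -0.16 to 0.08 at 19 months.

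*Dll4*, the ligand of endothelial tip cells, had genotype differences of opposite sign at the ages, and neither was called. It had 51.9, 67.7 and 83.0 normalized counts in WT and 111, 155 and 115 in *Gde2*KO at 4 months, and every knockout library was higher. At 19 months it had 69.9, 89.8 and 75.7 in WT and 49.8, 63.9 and 48.4 in *Gde2*KO, and every knockout library was lower. The log2 fold changes were 0.91 (SE 0.25, 95% interval 0.34 to 1.49, limma adjusted p = 0.463) and -0.54 (SE 0.24, 95% interval -1.08 to 0.01, limma adjusted p = 0.711). With WT replicate 3 as the only 4-month WT library, the 4-month value was 0.59. Summed TPM of 12 endothelial markers were 166 to 214 in WT and 210 to 232 in *Gde2*KO at 4 months, and 251 to 339 and 193 to 270 at 19 months, with 0 of 12 called in either genotype comparison and none at 0. Their part in the *Dll4* values was not tested.

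**Figure D5:**
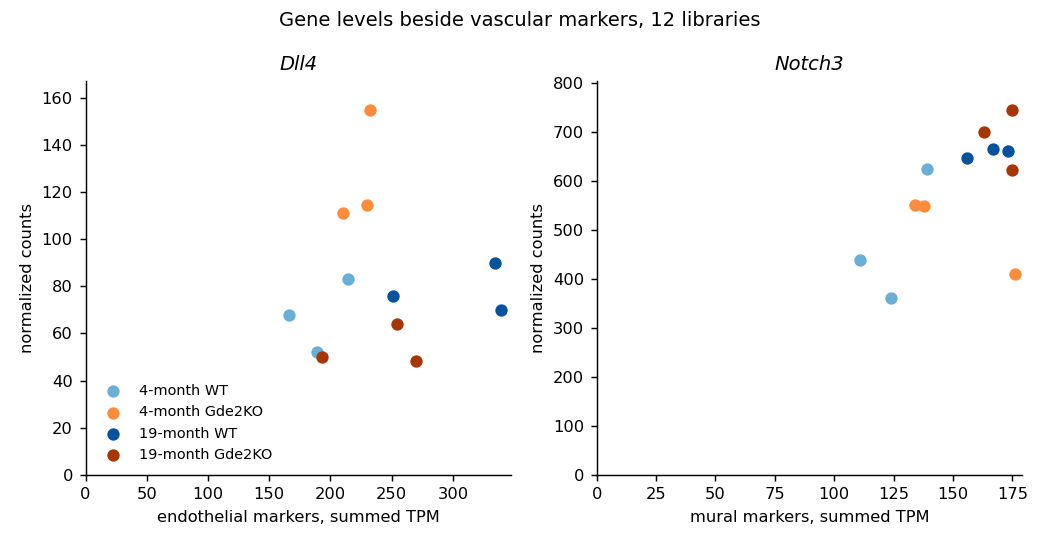
Left, normalized counts of *Dll4* (vertical axis) against summed TPM of 12 endothelial markers. Right, normalized counts of *Notch3* against summed TPM of 12 mural markers. Points are the 12 libraries, colored by group, and the 3 libraries of 4-month *Gde2*KO, at 111 to 155 counts, are the highest for *Dll4*.

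Between ages, 8 of 59 pathway genes were called in WT, 4 higher and 4 lower, and 4 in *Gde2*KO, all lower, beside 13.7% and 11.9% of all genes, so the list did not exceed the background. The higher genes in WT were *Tle2*, which encodes a corepressor of HES proteins (log2 fold change 0.90), the ligand-like *Dlk2* (1.11), the Notch inhibitor *Numb* (0.91) and *Hes3* (2.16), the last named after its values were seen. The lower ones were the ligand-like *Dlk1* (-3.91), *Aph1b* of γ-secretase (-0.74), the coactivator *Maml2* (-0.89) and the target *Hey2* (-0.73). In *Gde2*KO they were *Dll4* (-1.22), *Dlk1* (-2.74), *Psenen* of γ-secretase (-0.84) and the ligand *Dll3* (-0.79). *Adam10* was lower with age in both genotypes by less than the fold threshold, at -0.36 in WT (SE 0.09, limma adjusted p = 0.0186) and -0.33 in *Gde2*KO (SE 0.09, limma adjusted p = 0.0260). *Rbpj* was at 0.42 in WT (limma adjusted p = 0.0325) and *Dner* at -0.45 in *Gde2*KO (limma adjusted p = 0.0476).

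*Numb* had 704 and 751 normalized counts in 4-month WT replicates 1 and 2 and 1439 to 1905 in the other 10 libraries. Of the 8 genes called in WT, *Dlk1* was the only one still called with the remaining replicate 3 as the only 4-month WT library, at -3.57 (limma adjusted p = 0.0746), while *Numb* was at 0.20, *Maml2* at -0.20 and *Aph1b* at -0.30, and *Tle2*, at 0.72 (limma adjusted p = 0.0482), narrowly missed the fold threshold. *Dlk1* had 123 to 180 normalized counts in 4-month WT and 4.66 to 16.1 in 19-month WT, the lowest of which is 1 estimated read. *Hey2* had 37.3 normalized counts in 19-month WT library A, which is 8 estimated reads, and 71.4 to 115 in the other 11 libraries.

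The study traced changes in splicing, so the share of each transcript in its gene's TPM was compared as well. Of the 10 genes tested at 4 months and the 9 tested at 19 months, 0 were called for altered transcript usage (limma, diffSplice), with 1 gene, *Dll1*, at an unadjusted p under 0.05, where 1.12% and 0.171% of all genes with several transcripts were called. In *Dll1* a retained-intron transcript (ENSMUST00000140784.1) held 5.46% ± 2.44 (SD, n = 3) of TPM in WT and 13.6% ± 2.57 in *Gde2*KO at 4 months. WT libraries spanned 2.74% to 7.46% and *Gde2*KO libraries 11.2% to 16.3% (limma adjusted p = 0.280). These shares rest on few counts, 2.19 to 5.08 normalized counts in WT and 5.54 to 11.6 in *Gde2*KO. At 19 months the shares were 6.35% ± 3.71 and 14.6% ± 9.57 and overlapped.

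In *Notch3* a retained-intron transcript (ENSMUST00000236544.1, chromosome 17, 32122840 to 32133765) held 71.8%, 44.0% and 53.3% of TPM in 19-month WT libraries A, B and C and 0%, 19.4% and 38.0% in *Gde2*KO. All WT libraries were higher, a difference of -37.2 percentage points for *Gde2*KO minus WT that did not pass the test (limma adjusted p = 0.900). The transcript is short, so large TPM shares rest on few counts, 23.5 to 71.5 normalized counts in WT and 0 to 22.0 in *Gde2*KO, beside 590 to 736 of the coding transcript. At 4 months its mean share was 24.9% ± 11.5 in WT and 30.7% ± 12.9 in *Gde2*KO. With gene-level TPM in place of counts, the *Notch3* difference between genotypes at 19 months was -0.72 on the log2 scale, in place of 0.06.

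Coding transcripts held most of the TPM of *Notch2*, at mean shares of 93.2% to 98.9% over the 4 groups, and of *Hey1*, at 87.1% to 93.4%. The coding transcript of *Notch4* held 20.2% to 36%, with non-coding transcripts of the gene making up the rest. For *Hes5* the coding transcript held on average 75.1% in WT (68.7% to 83.1%) and 81.5% in *Gde2*KO (76.0% to 87.3%) at 4 months, and 61.4% (38.4% to 74.9%) and 57.7% (38.2% to 73.1%) at 19 months. Genes annotated on the opposite strand overlap *Dll1*, *Hes5*, *Notch1*, *Notch3* and *Notch4*, and genes on the same strand overlap *Jag2*, *Notch1* and *Notch2*. The kit is not stated to keep strand, so reads in the shared bases cannot be assigned with certainty.

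The genes with the most similar patterns were looked up for 4 members over the 12 libraries, by Pearson's r of log2 values among 14295 genes that reached a mean of 50 normalized counts. *Hes5* was followed most closely by *Nyap2* (0.95), *Aebp2* (0.94) and *Hs3st5* (0.93), and *Hes1* by *Rrp1*, *Aph1a* and *Tmed9*, each at 0.93. *Jag1* was followed by *Celsr1* (0.92), *Specc1l* and *Lrriq1* (both 0.89), and *Notch1* by *Zfp516* (0.89), *Scmh1* (0.88) and *Gsk3b* (0.86). Among the 10 genes themselves the closest pair was *Hes5* and *Hey1*, at 0.80. These values are descriptions over libraries that share groups and depth, and the highest of many genes.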

How the data were processed

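Cortical polyA RNA was sequenced from 12 mice in 4 groups of 3, mapped to groups by sample labels. Per the submitters' notes and the study's methods, reads were pseudoaligned with Kallisto to the GRCm38 transcriptome (version and trimming for this step not given in the sources used here). The authors deposited 2 tables of signal values from Sleuth for 118489 transcripts, estimated counts and TPM, each divided by a size factor per library. They are called normalized counts and TPM here. Transcripts without a gene (1673, 0.541% to 0.605% of a library's total) were left out. Estimated reads are a library's total divided by the value of 1 read. Only 46.7% to 62.9% of the genes above 0 were within 0.01 of whole reads, so no count test was run.

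Normalized counts were summed to genes and tested where 47% of libraries had 5 or more, with limma 3.58.1 (R 4.3.3, log2 with a pseudocount of 0.5, intensity trend), so fold changes of low genes are understated. Genotypes were fitted per age, and interaction and age over all 12 libraries. Adjusted p-values are Benjamini-Hochberg over all genes tested. Transcript usage used diffSplice on transcripts with a mean of 5 or more and needed an adjusted p under 0.1 and shares that moved by more than 10 percentage points. The fits for level and for transcript usage were tested on simulated data, and the other steps were not. Nothing says that libraries were prepared apart, so p-values measure the spread between these samples. Whether the ages were prepared or sequenced together is not given either, so age cannot be told apart from a difference in handling. Alternatives were other pseudocounts, filters, scalings, gene-level TPM (pseudocount 0.01), no trend, a replicate block and left-out libraries.

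Named genes are *Gdpd5*, the 10 genes, 7 set pathway genes, called pathway genes (at most 6 a comparison) and, for 4 members, the 3 genes of highest r. Genes and lists were chosen with earlier results of these data known. Positions are from GENCODE M21 and the promoter from RefSeq.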

Additional observations from a re-analysis of the deposited data

Results flagged for a closer look

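*Dll4* had groups that did not overlap at either age, with every *Gde2*KO library above every WT library at 4 months and below at 19 months. The log2 fold changes differed between ages by -1.45 (SE 0.34, 95% interval -2.18 to -0.72), which did not pass the test over all genes (limma adjusted p = 0.368, unadjusted p = 9.73e-04). Over the alternatives, each left-out library included, the value lay between -1.64 and -1.13. It was -1.13 with WT replicate 3 as the only 4-month WT library. Without 4-month WT replicate 3 it was -1.61 (limma adjusted p = 0.0132). Library A of 19-month *Gde2*KO held 6 estimated reads of *Dll4*.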

How the results depend on the processing

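No member was called for genotype in any alternative other than the fit without 4-month WT replicate 3, where 1 was called at 4 months (range over left-out libraries 0 to 1) and 2 in the interaction (0 to 2). Calls over all genes ranged from 5 (without *Gde2*KO replicate 3) to 1510 (without WT replicate 3) at 4 months, against 24, from 7 (no trend) to 45 (without *Gde2*KO library B) at 19 months, against 18, and from 2 (gene-level TPM) to 2029 (without 4-month WT replicate 3) in the interaction, against 9. Between ages they ranged from 517 (without the libraries rich in hippocampal markers) to 3096 (without 4-month WT replicate 3) in WT, against 2565, and from 1096 to 2851 (without 4-month *Gde2*KO replicate 3 or 2) in *Gde2*KO, against 2224. From 4 to 19 months in WT, the 1 member called became 3 by gene-level TPM and 0 by median-ratio scaling, without the 2 shallow libraries and without the 2 libraries rich in hippocampal markers (0 to 2 over left-out libraries). The members added were *Notch3* (1.24) and *Dll1* (-0.74) by gene-level TPM and *Notch3* (0.72) without 4-month WT replicate 3. In *Gde2*KO, the 1 member called became 0 by gene-level TPM, median-ratio scaling, upper-quartile scaling, an adjusted p under 0.05 and without the 2 shallow libraries (0 to 1 over left-out libraries). Transcript usage stayed at 0 members in each alternative run, while its calls over all genes ranged from 88 (without WT replicate 2) to 721 (without *Gde2*KO replicate 2) at 4 months, against 137, and from 20 (mean of 20 or more) to 138 (without the shallow libraries) at 19 months, against 21.

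Scaling moved the median of all genes at 4 months from 0.11 to 0.01 (median ratio) and -0.03 (upper quartile), so member values there shift by about the same amount. In the interaction it moved from -0.15 to -0.03 under both, and in WT between ages from -0.07 to -0.19 (upper quartile), with 851 calls higher and 1777 lower in place of 1179 and 1386. In *Gde2*KO between ages it moved from -0.21 to -0.05 by the median ratio, with 726 calls higher and 942 lower in place of 478 and 1746, and to -0.22 by the upper quartile, with 384 higher and 1550 lower. The replicate numbers did not pair the 4-month samples (correlations 0.06, 0.01 and -0.05), and with a replicate block 0 members were called, for level and for transcript usage. No paired analysis was possible at 19 months because those columns carry no replicate number.

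Of 1558 single-gene values, 62 changed sign, all from values that were not called. By gene-level TPM these were *Jag1* at 4 months (-0.01), *Notch3* (-0.72) and *Hes1* (0.14) at 19 months, *Notch4* (-0.42) and *Jag1* (0.01) in the interaction, *Hes5* with age in WT (0.12), and *Hes1* (0.10) and *Dll1* (0.13) with age in *Gde2*KO. By median-ratio scaling they were *Jag1* at 4 months (-0.09) and in the interaction (0.12), *Notch3* in the interaction (0.08), and *Hes1* (0.02) and *Dll1* (0.11) with age in *Gde2*KO. By upper-quartile scaling they were *Jag1* (-0.13) and *Notch3* (-0.03) at 4 months, *Jag1* at 19 months (-0.02), and *Notch3* (0.07) and *Jag1* (0.12) in the interaction. Without the 2 libraries rich in hippocampal markers they were *Notch3* (-0.33) and *Hey2* (0.11) at 4 months, *Notch3* (0.39) and *Hes5* (0.04) in the interaction and *Dll4* with age in WT (-0.09). Without the shallow libraries they were *Notch4* at 19 months (0.11), *Notch3* (0.03) and *Jag1* (0.16) in the interaction and *Hes5* with age in WT (0.01).

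With each library left out in turn, the values whose sign changed ranged at 4 months from -0.18 to 0.16 for *Notch1*, -0.07 to 0.32 for *Notch3*, -0.14 to 0.16 for *Jag1*, -0.03 to 0.00 for *Jag2* and -0.10 to 0.06 for *Hey2*. At 19 months they ranged from -0.02 to 0.34 for *Dll1*, -0.18 to 0.31 for *Jag1* and -0.13 to 0.03 for *Hes1*. In the interaction they ranged from -0.03 to 0.31 for *Notch1*, -0.26 to 0.13 for *Notch3*, -0.08 to 0.30 for *Notch4* and -0.19 to 0.30 for *Jag1*. With age they ranged from -0.36 to 0.18 for *Hes5* in WT, and in *Gde2*KO from -0.20 to 0.15 for *Notch1*, -0.05 to 0.13 for *Notch2*, -0.21 to 0.15 for *Dll1* and -0.34 to 0.06 for *Hes1*. The cause of these changes was not tested.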
